A study of Rattus norvegicus with 33 samples.

Results

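The data described here are 5 arrays, each with a pair of dye channels, of the right lumbar spinal dorsal horn (LDH) of adult rats. Their left hindpaw had been injected with carrageenan on postnatal day 12 (P12), so the tissue lies on the side opposite the injected paw. These are all the arrays whose titles name the right cord after P12 injection, 5 of 33 arrays in the series, and they were chosen by label only. Carrageenan, a polysaccharide from seaweed, inflames the skin into which it is injected. Male rats were injected once at P12 with 0.25% carrageenan in saline (1 µl per g of body weight), and tissue was taken at postnatal day 60. On each array the right LDH of a carrageenan rat was in the Alexa 647 channel and the right LDH of a control rat in the Alexa 546 channel. The sources used here give neither the strain nor the treatment of the controls, and no dye swap is named, so an effect of dye and an effect of carrageenan cannot be told apart. The labels do not say which arrays, if any, came from rats inflamed again as adults, nor whether arrays came from separate animals, so the spread between arrays may be technical. The 2 groups compared with it are the left LDH (the injected side) and the brain after P12 injection, 5 arrays each on the same platform. The right LDH after injection on postnatal day 3 (P3), an age the study places within a sensitive period, was measured on another platform.

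The dorsal horn is where sensory fibres from the body end and pass pain and touch signals to spinal neurons. Glutamate carries most of that excitation, GABA restrains it, and peptides such as substance P, opioids, cholecystokinin and neuropeptide Y, with noradrenaline and serotonin from the brainstem, raise or lower the gain. Each side of the cord mainly serves its own side of the body, but neurons cross the midline, and brainstem pathways reach both sides. The array was built to cover the receptors, transporters, peptides, neurotrophins and cytokines of these systems.

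The deposited value of a probe on an array is the log ratio of the 2 channels, read here as log2. Neither the base nor the direction of the ratio is stated, so signs are given as deposited, a positive value most likely meaning more signal from the carrageenan channel, which the labels list first. A log ratio holds no level of expression, so the tissue label could not be checked. Of the listed markers of dorsal horn neurons, 5 were on the array (Tac1, Penk, Pdyn, Sst and Npy), and of those of astrocytes, microglia, oligodendrocytes, T cells, neutrophils, blood and neurons in general, 0 were. Array medians of the right LDH lay between 0 and 0.036, the SD over probes within an array between 0.834 and 1.06, and 31 to 52 probes per array lay beyond 1 in either direction. The 10 pairs of right LDH arrays correlated over the 232 probes at r = 0.256 to 0.438, with a median of 0.368. The median r was 0.148 among left LDH arrays, 0.233 among brain arrays and 0.332 between right and left LDH arrays. These are descriptions over probes of arrays that share a platform and a dye orientation. By correlation, no right LDH array stood apart from the other 4. Array 4 had the smallest spread (SD 0.834, 31 probes beyond 1), as did array 4 of the left LDH (SD 0.776) and of brain (SD 0.326).

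The first question was which probes differed between carrageenan and control rats on the uninjected side. Of 232 probes, 13 had a mean log ratio different from 0 at an adjusted p under 0.05 (limma with Benjamini-Hochberg adjustment), which is 5.6% of those tested. Of these, 12 were negative (5.17%) and 1 was positive (0.431%). They belong to 10 genes and 1 probe without a gene name. The negative genes are the neurotrophin Ntf3, the cytokine receptor chain Il2rb, the chemokine receptor Cxcr1, the cytokine Il3, the GABA-B receptor Gabbr1 with 3 probes, the peptide receptors Cckbr, Npy1r and Tacr3, and the adrenergic receptor Adra2a. The positive gene is the kainate receptor subunit Grik1. At an unadjusted p under 0.05 there were 59 probes (25.4%), and 67 probes (28.9%) had the same sign on 5 of 5 arrays, 36 of them positive and 31 negative. The corresponding number with 1 sign on 5 of 5 arrays was 35 in the left LDH and 36 in brain. The calls leaned to negative values although most means were positive (131 of 232, 56.5%, against 101 negative, 43.5%), with a median over all probes of 0.099. The number of calls fell to 3 without array 1 or array 3 and to 5 without array 2, and it was 2 when the variance of each probe was not moderated across probes. In bulk tissue, a change in the number of cells that express a gene and a change in RNA per cell cannot be told apart.

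**Figure D1:**
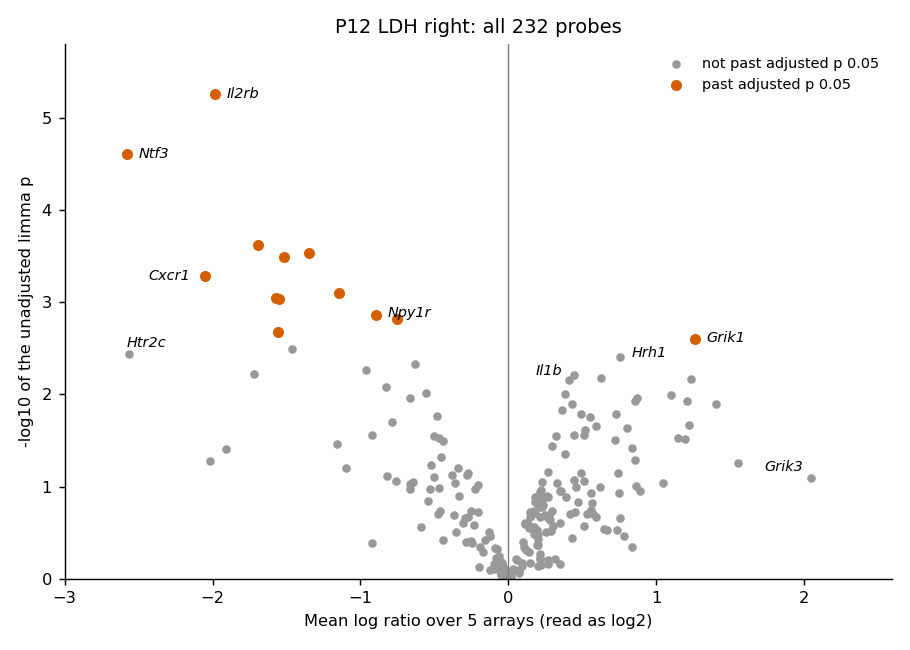
Each point is 1 of the 232 probes of the P12 right LDH, with the mean log ratio over 5 arrays (read as log2) on the x axis and the negative log10 of the unadjusted limma p on the y axis. Of the 13 orange points, which passed an adjusted p of 0.05, 12 lie left of 0 and 1, Grik1, lies right of it, and Grik3 with the highest mean of all (2.05) lies low because its arrays disagree.

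**Figure D2:**
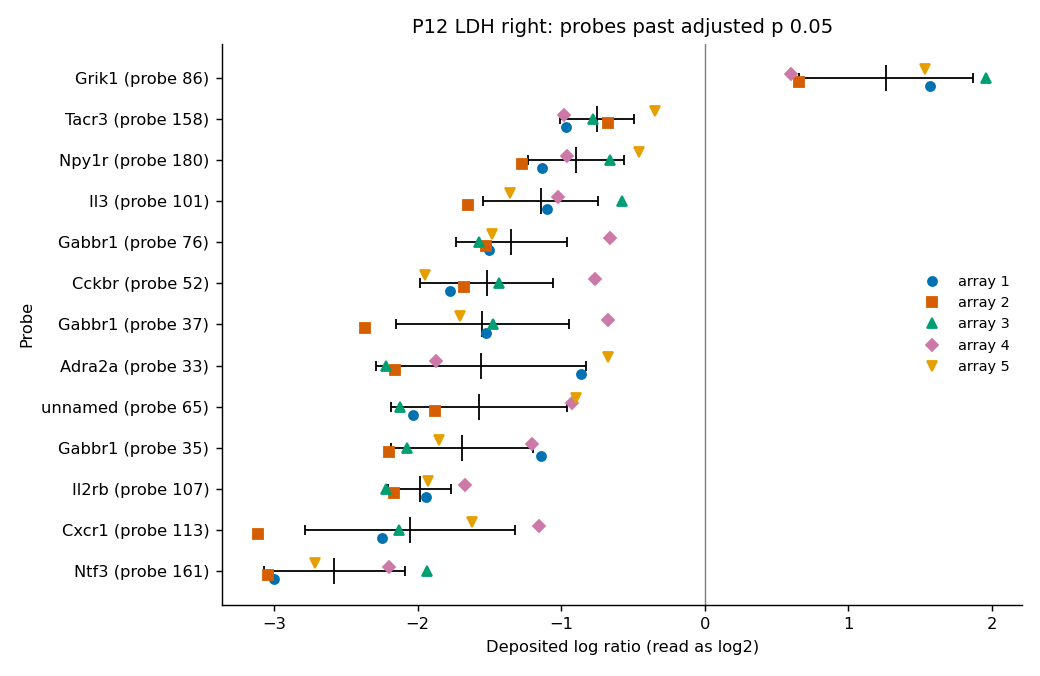
The 13 probes past an adjusted p of 0.05 in the P12 right LDH, 1 row each, with the log ratio on each of the 5 arrays (symbols), the mean (vertical tick) and the SD (bar). All 5 arrays lie on 1 side of 0 in every row, and the Il2rb row is the tightest, with an SD of 0.22.

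Neurotrophins are secreted factors that keep sensory and other neurons alive and shape their connections, and Ntf3 encodes neurotrophin-3, the ligand of the receptor TrkC. Its probe (161) read -2.999, -3.05, -1.94, -2.20 and -2.71 on arrays 1 to 5. All 5 arrays were far below 0, and the highest of them was array 3. The mean was -2.58 ± 0.49 (SD, n = 5), with an adjusted p of 0.00288, a ratio of 5.98 in size if the base is 2 and of 13.2 if it is the natural base. It was the lowest mean of all 232 probes. Among the 7 probes of the neurotrophins and their receptors, Ntf3 was the 1 that passed (5.6% of all probes did). Of the means, 5 were negative and 2 positive (5 and 2 in the left LDH, 3 and 4 in brain). The median was -0.27, or -0.098 without array 1 and -0.405 without array 4. The TrkC receptor gene Ntrk3 had 2 probes, both negative, at -0.45 ± 0.42 and -0.27 (adjusted p = 0.188 and 0.378), and the TrkB receptor gene Ntrk2 lay at -0.53. Bdnf, the TrkB ligand, lay near 0 at -0.12 ± 0.22 with arrays from -0.42 to 0.074. The low-affinity receptor gene Ngfr had the highest mean of the list, 0.22 ± 1.44, but 4 of its 5 arrays were negative and array 4 read 2.73.

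Il2rb, the beta chain shared by the receptors of interleukin-2 and interleukin-15, had the smallest p of the group. Its probe (107) read -1.94, -2.17, -2.22, -1.67 and -1.93 on arrays 1 to 5. No array came near 0, and the SD was the smallest among the called probes. The mean was -1.99 ± 0.22 with an adjusted p of 0.00129. Ntf3 and Il2rb were also the 2 genes that passed whichever array was left out (adjusted p at most 0.0282 and 0.0153). The other chains of that receptor did not pass. Il2ra, the alpha chain, was positive on 5 of 5 arrays at 0.49 ± 0.30 (adjusted p = 0.106), and Il2rg, the common gamma chain, lay at -0.005 ± 0.56 (adjusted p = 0.988). These chains and the 2 ligands, Il2 at -0.36 ± 0.41 and Il15 at -0.47 ± 0.36 (adjusted p = 0.261 and 0.138), were set beside Il2rb after its value was seen. Over the 16 probes of interleukin receptors, 7 means were positive and 9 negative. Their median was -0.011, which was above 0 without array 1 or 4. Il2rb was the 1 of these 16 that passed, against 5.6% of all probes. The highest mean was that of Il11ra1, a receptor chain of interleukin-11, at 0.67 ± 1.503, which rested on arrays 3 and 4.

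Cxcr1, a receptor for neutrophil-attracting chemokines, read -2.25, -3.11, -2.13, -1.16 and -1.63 on arrays 1 to 5 (probe 113). Array 2 was lowest and array 4 highest, and no array came near 0. The mean was -2.05 ± 0.73 with an adjusted p of 0.0203, which passed 0.05 no longer without array 1 or array 3 (largest adjusted p 0.0947). The related receptor Cxcr2 had 3 probes, with means of -0.67, 0.11 and 0.20, and 0 of 3 passed.

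The interleukins, secreted messengers of immune cells, had 16 positive and 7 negative means among 23 probes, where 56.5% of all probes were positive. Against 0.099 for all probes, their median was 0.23. That median was 0.123 without array 3 and 0.138 without array 5. Brain had 17 positive and 6 negative interleukin means, and the left LDH 10 and 13. In the right LDH the 1 of 23 that passed (5.6% of all probes did) was negative. Il3, a growth factor of blood-forming cells and mast cells, read -1.10, -1.65, -0.58, -1.02 and -1.36 on its probe 101, a mean of -1.14 ± 0.40 (adjusted p = 0.0238). It passed no longer without array 1, 2, 4 or 5 (largest adjusted p 0.0958). Its second probe (132), on another sequence entry, read 0, 2.92, -0.74, 0.19 and 1.40, a mean of 0.76 ± 1.43. The probes of Il3 thus lay on opposite sides of 0, and averaged they gave -0.19 ± 0.53 (adjusted p = 0.579). The inflammatory cytokine gene Il1b, also positive on 5 of 5 brain arrays (mean 0.19), read 0.59, 0.44, 0.44, 0.33 and 0.26. It was positive on each right LDH array, with a mean of 0.41 ± 0.13 (adjusted p = 0.0705). Il1a lay at 0.59 ± 0.44 and Il6 at 0.14 ± 0.49, and neither passed (adjusted p = 0.124 and 0.67). Il13 had the highest mean of the list, 1.20 ± 1.08, drawn up by 3.01 on array 1. Il23a had the lowest, -1.91 ± 1.88, with 2 of its 5 arrays at exactly 0.

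GABA is the main inhibitory transmitter of the dorsal horn, acting through GABA-A channels and the GABA-B receptor, whose binding subunit is encoded by Gabbr1. Gabbr1 was covered by 7 probes, and these split. Probe 35 read -1.14, -2.20, -2.07, -1.20 and -1.85, a mean of -1.69 ± 0.49 (adjusted p = 0.0149). Probe 37 read -1.53, -2.37, -1.47, -0.68 and -1.70, a mean of -1.55 ± 0.60 (adjusted p = 0.0238). Probe 76 read -1.50, -1.53, -1.57, -0.66 and -1.48, a mean of -1.35 ± 0.39 (adjusted p = 0.0149). These 3 probes were negative on 5 of 5 arrays, and array 4 was the highest in probes 37 and 76 and near the highest in probe 35. The other 4 probes did not pass. Probe 36 read 1.07, 0.76, 1.01, 1.52 and -0.051, a mean of 0.86 ± 0.58, and probe 224 read 0.65, 0.49, 0.61, 0.25 and 0.16, a mean of 0.43 ± 0.22 (adjusted p = 0.089 and 0.0902). Probes 38 and 34 had means of 0.74 ± 0.86 and -0.064 ± 0.51. Probes 34 to 38 carry the same sequence entry, so the disagreement stood within 1 entry as well as between entries. Probe 35 lost its call without array 3 (adjusted p = 0.0601), probe 76 without array 1, 2 or 3 and probe 37 without array 1, 2, 3 or 5 (largest adjusted p 0.0766 and 0.0958). Averaged over its 7 probes, Gabbr1 had a mean of -0.37 ± 0.26 (adjusted p = 0.132), so the gene's call depends on reading probes singly.

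Among GABA-A subunits, Gabra4, the alpha 4 subunit, read -2.33, -1.67, -1.11, -0.35 and -1.84, a mean of -1.46 ± 0.76 that just missed the threshold (adjusted p = 0.0539). Gabrd, the delta subunit that pairs with alpha 4 in receptors outside synapses, read -0.58, -0.51, -1.07, -0.82 and -1.83, a mean of -0.96 ± 0.53 (adjusted p = 0.0702). Both were negative on 5 of 5 arrays, and neither passed. Left LDH and brain means were -1.59 and -0.92 for Gabra4, and -0.35 and -1.06 for Gabrd. In the right LDH Gabrr1, a rho subunit, had the highest mean of the family at 1.15 ± 1.02 and was positive on 5 of 5 arrays (adjusted p = 0.138). Over the 21 probes of GABA receptors, 11 means were positive and 10 negative. Their median was 0.024, which was below 0 without array 3. The 3 that passed, against 5.6% of all probes, were all Gabbr1. The genes that make or carry GABA had 3 positive means among 4 probes and 0 that passed by limma. At an unadjusted p under 0.05 there was 1 of the 4, against 25.4% of all probes. Gad2, which makes GABA, lay at 0.73 ± 0.53 with 4 of 5 arrays positive (adjusted p = 0.106), and the transporters Slc6a11 and Slc6a13 at 0.86 ± 0.89 and -0.040 ± 0.040.

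Receptors of 3 peptides were among the negative calls. Cckbr encodes the cholecystokinin B receptor, whose peptide is known to oppose opioid analgesia. It read -1.77, -1.68, -1.43, -0.76 and -1.95 (probe 52), a mean of -1.52 ± 0.46 (adjusted p = 0.0149), with array 4 the highest. Npy1r encodes the Y1 receptor of neuropeptide Y, an inhibitory receptor on dorsal horn neurons. It read -1.14, -1.27, -0.66, -0.96 and -0.46 (probe 180), a mean of -0.90 ± 0.33 (adjusted p = 0.0323), with arrays 3 and 5 nearest to 0. Tacr3, the neurokinin 3 receptor, read -0.97, -0.68, -0.78, -0.98 and -0.35 on probe 158, a mean of -0.75 ± 0.26 (adjusted p = 0.0323). Its other probe (157), on the same sequence entry, lay on the same side at -0.44 ± 0.34, with 4 of 5 arrays negative (adjusted p = 0.139). The average of both Tacr3 probes was -0.60 ± 0.22 (adjusted p = 0.063). Cckbr lost its call without array 1, 2 or 3 (largest adjusted p 0.0766), and Npy1r and Tacr3 without array 1, 2, 3 or 4 (0.12 each).

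The precursors of neuropeptide Y and cholecystokinin did not pass. Npy itself lay at 0.013 ± 0.42, and Cck at 0.45, the latter chosen after its value was seen. The substance P precursor gene Tac1 had 4 probes at -0.35, -0.029, 0.27 and 0.84, the last with 5.62 on array 3 against -1.21 to 0.47 on the other arrays. Nts, the neurotensin precursor, had 3 probes on 1 sequence entry. Its probe 184 read -0.41, -1.37, -0.35, -0.58 and -0.60, a mean of -0.66 ± 0.41, while probe 185 lay at -0.92 ± 0.80 and probe 186 at 0.30 ± 0.17 (adjusted p = 0.0886, 0.138 and 0.153). Probe 186 was positive and the other 2 probes negative on all 5 arrays. Among the 14 probes of the tachykinin and calcitonin gene-related peptide (CGRP) family, 8 means were positive and 6 negative. Their median was 0.27, or 0.042 without array 3 and 0.135 without array 5. Of these 14 probes 1 passed, against 5.6% of all probes. Calcb, the beta form of CGRP, was positive on each array at 0.88, 0.45, 0.94, 0.16 and 0.71, a mean of 0.63 ± 0.32 (adjusted p = 0.0705). It was also positive on 5 of 5 arrays of the left LDH (mean 0.40) and of brain (mean 0.51). Calcrl, the CGRP receptor gene, had the family's highest mean, 1.22 ± 1.00, with arrays 3 and 5 above 2 and the others below 0.9 (adjusted p = 0.124). The 3 probes of Calca, the alpha form of CGRP, had means of -0.34, -0.28 and 0.72.

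Noradrenaline released in the cord dampens pain through the alpha 2A receptor encoded by Adra2a. Its probe 33 read -0.87, -2.16, -2.22, -1.87 and -0.68, a mean of -1.56 ± 0.73 (adjusted p = 0.0404), which passed 0.05 no longer without array 1, 2, 3 or 4 (largest adjusted p 0.12). The arrays fell apart into arrays 2 to 4 near -2 and arrays 1 and 5 above -0.9. The other 2 probes of Adra2a, on a different sequence entry, had means of 0.21 each (± 1.04 and ± 0.23), and the average of the 3 probes was -0.38 ± 0.57 (adjusted p = 0.342). Adrb1, the beta 1 receptor, was negative on 5 of 5 arrays at -0.63 ± 0.29 (adjusted p = 0.0642). Slc6a2, the noradrenaline transporter, read 0.64, 0.50, 0.25, 0.35 and 0.50 on probe 207, a mean of 0.45 ± 0.15 (adjusted p = 0.0705), whereas probe 208 on the same entry lay at -0.091 ± 0.19. Over the 11 probes of adrenergic receptors and this transporter, 5 means were positive and 6 negative. Their median was -0.091, which was above 0 without array 2. Of these 11 probes 1 passed, against 5.6% of all probes.

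The 23 probes of ionotropic glutamate receptors gave 14 positive means (56.5% of all probes were positive), 9 negative ones and a median of 0.18. Of these 23 probes 1 passed, against 5.6% of all probes, and it was the tissue's 1 positive call. Grik1, the kainate receptor subunit GluK1, which is found on sensory fibres and dorsal horn neurons, read 1.57, 0.65, 1.96, 0.60 and 1.53 on probe 86, a mean of 1.26 ± 0.61 (adjusted p = 0.0452). Arrays 2 and 4 were lower than the other 3, but all were above 0. This call was lost without any 1 of the 5 arrays (adjusted p from 0.052 to 0.155). Its second probe (85) lay at 0.56 ± 0.77 with 4 of 5 arrays positive (adjusted p = 0.278). Gria2, the AMPA receptor subunit that limits calcium entry, read 1.73, 0.67, 0.24, 2.02 and 1.55 on probe 83, a mean of 1.24 ± 0.75 (adjusted p = 0.0705), and 0.18 ± 0.17 on probe 81. Grik3 had the highest mean of all probes, 2.05 ± 2.54, with arrays at 0, 1.14, 3.67, -0.22 and 5.66, so it was carried by arrays 3 and 5 (adjusted p = 0.252). Grin1, the obligatory NMDA receptor subunit, had 4 probes at -2.02, -0.23, 0.18 and 0.20. The lowest of these read -3.05, 0, -2.38, -4.94 and 0.28, so the arrays disagreed by over 5 units (adjusted p = 0.202).

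Metabotropic glutamate receptors tune synapses through G proteins. Of their 8 probes, 6 had positive means and 2 negative, where 56.5% of all probes were positive. These counts were 6 and 2 in the left LDH as well, and 4 and 4 in brain. In the right LDH their median was 0.48 against 0.099 for all probes, the medians of single arrays ran from 0.0755 to 0.698, and the list's median was 0.272 without array 3. By limma, 0 of the 8 probes passed, with 3 at an unadjusted p under 0.05 (25.4% of all probes). Grm6 had the highest mean, 0.87 ± 0.57, with arrays at 1.12, 1.77, 0.58, 0.39 and 0.49 (adjusted p = 0.0886). Grm3 (0.80 ± 0.65) and Grm8 (0.45 ± 0.33) were positive on 5 of 5 arrays too, and were added here after their values were seen. Left LDH and brain means were 0.22 and 0.12 for Grm3, and 0.47 and 0.45 for Grm8. The 2 probes of Grm4 lay at -0.24 and 0.75.

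Of the serotonin receptors and transporter, 0 of 16 probes passed by limma (3 at an unadjusted p under 0.05, against 25.4% of all probes). There were 9 positive and 7 negative means and a median of 0.046, which was below 0 without array 2 or 4. Htr2c, the 2C receptor, had the second lowest mean of all probes. It read -3.29, -4.53, -1.81, -0.87 and -2.32, a mean of -2.56 ± 1.40 (adjusted p = 0.0568), with a wide spread but no array above 0. Its means were -1.64 in the left LDH and -2.20 in brain. In the right LDH Htr4 had the highest mean of the list, 0.52 ± 0.39. The histamine receptors had 4 probes and 0 limma calls, with 3 at an unadjusted p under 0.05 (25.4% of all probes). Hrh1 read 0.69, 0.63, 1.07, 0.26 and 1.13, a mean of 0.75 ± 0.36 (adjusted p = 0.0576). Hrh2 lay at 0.38 ± 0.13, positive on 5 of 5 arrays, and Hrh4, the receptor of immune cells, at -0.83 ± 0.50, negative on 5 of 5 (adjusted p = 0.0869 and 0.0807). Adora1, the adenosine A1 receptor, which inhibits transmitter release, was negative on 5 of 5 arrays at -0.56 ± 0.31 (adjusted p = 0.0869), and the other 4 adenosine receptor probes had means from -0.096 to 0.51.

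Opioid peptides and their receptors are the cord's own pain-relieving system. Among their 13 probes, 7 means were positive and 6 negative with a median of 0.093, which was below 0 without array 2 or 3. By limma 0 of them passed (3 at an unadjusted p under 0.05, against 25.4% of all probes). Oprm1, the mu receptor on which morphine acts, had the lowest mean, -0.79 ± 0.61, with arrays at -0.19, -1.13, -0.11, -1.48 and -1.02 (adjusted p = 0.118). All 5 arrays were negative, though arrays 1 and 3 were near 0. Oprl1, the nociceptin receptor, had the highest at 1.10 ± 0.73 on probe 190, with 0.055 on array 4 and 1.80 on array 3 (adjusted p = 0.0869), but its probe 189 lay at -0.048 ± 0.15. Oprd1 and Oprk1, the delta and kappa receptors, lay at -0.056 ± 0.20 and 0.42 ± 0.72. The dynorphin precursor gene Pdyn had 0.26 ± 0.58, and the 3 probes of the enkephalin precursor gene Penk had -0.47, 0.093 and 0.35. The probe of Sst, the somatostatin precursor, read -0.25 ± 0.66, and that of Grin2b -0.0076 ± 0.54. Somatostatin receptor Sstr2 held the highest mean of its list on probe 205, 1.55 ± 1.69, with 4.28 on array 3, while its probe 217 lay at -0.44 ± 1.18. Across the 15 pain-related genes followed as a panel, 31 probes had a median of -0.0076. Of their means 15 lay above 0 and 16 below, where 56.5% of all probes lay above. The 3 that passed, against 5.6% of all probes, were those of Gabbr1, whose average over probes did not pass.

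**Figure D3:**
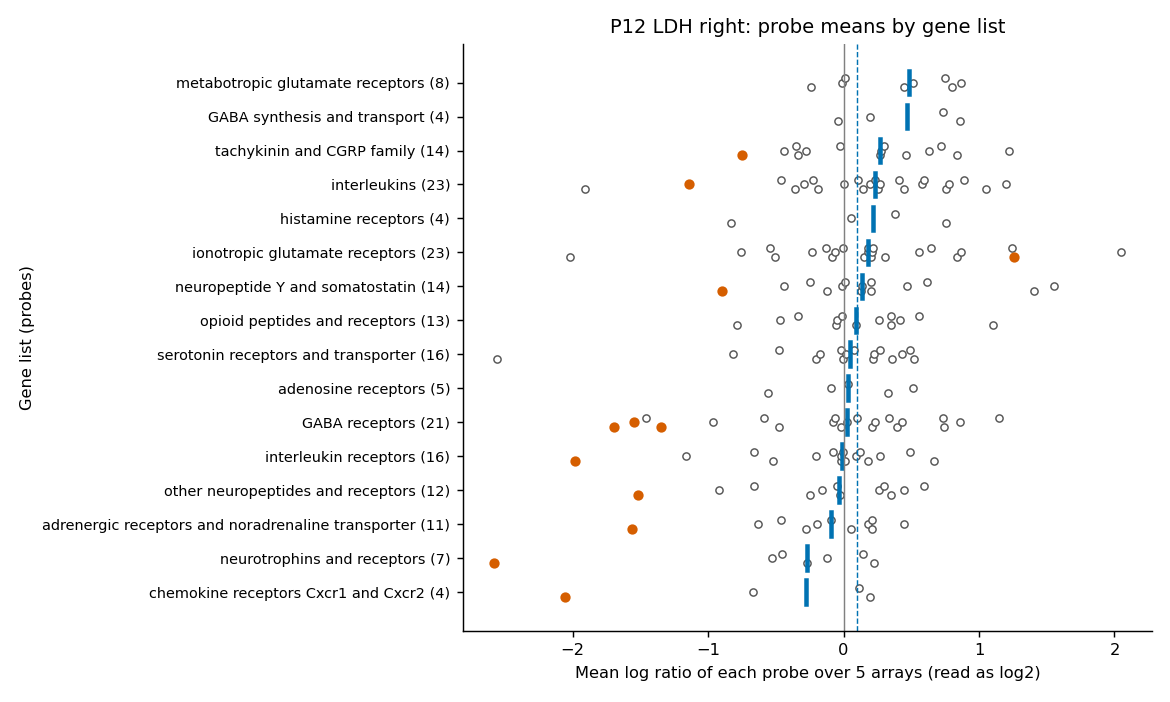
Mean log ratio of each probe over the 5 P12 right LDH arrays (x axis, read as log2) by gene list (rows, number of probes in brackets), with orange points past an adjusted p of 0.05, a blue bar at each list's median, and a dashed line at the median of all 232 probes (0.099). The medians lie between -0.28 and 0.48, and every called probe other than Grik1 lies to the left of 0 and of its list's median.

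How far probes of 1 gene agree bears on every value above. Of 158 named genes, 30 had several probes, and in 21 of these the probe means lay on both sides of 0. The distance between the highest and lowest probe of a gene had a median of 0.943 and was largest for Gabbr1, 2.55. Of the 10 called genes, 5 had several probes, and in 3 of these (Gabbr1, Il3 and Adra2a) the other probes included means of the opposite sign. In Grik1 and Tacr3 all probes had 1 sign. The 5 called genes with a single probe are Ntf3, Il2rb, Cckbr, Cxcr1 and Npy1r. When probes of 1 symbol were averaged, 7 of 185 items passed: these 5 genes, Grik1 at 0.91 ± 0.37 (adjusted p = 0.0438) and the unnamed probe.

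**Figure D4:**
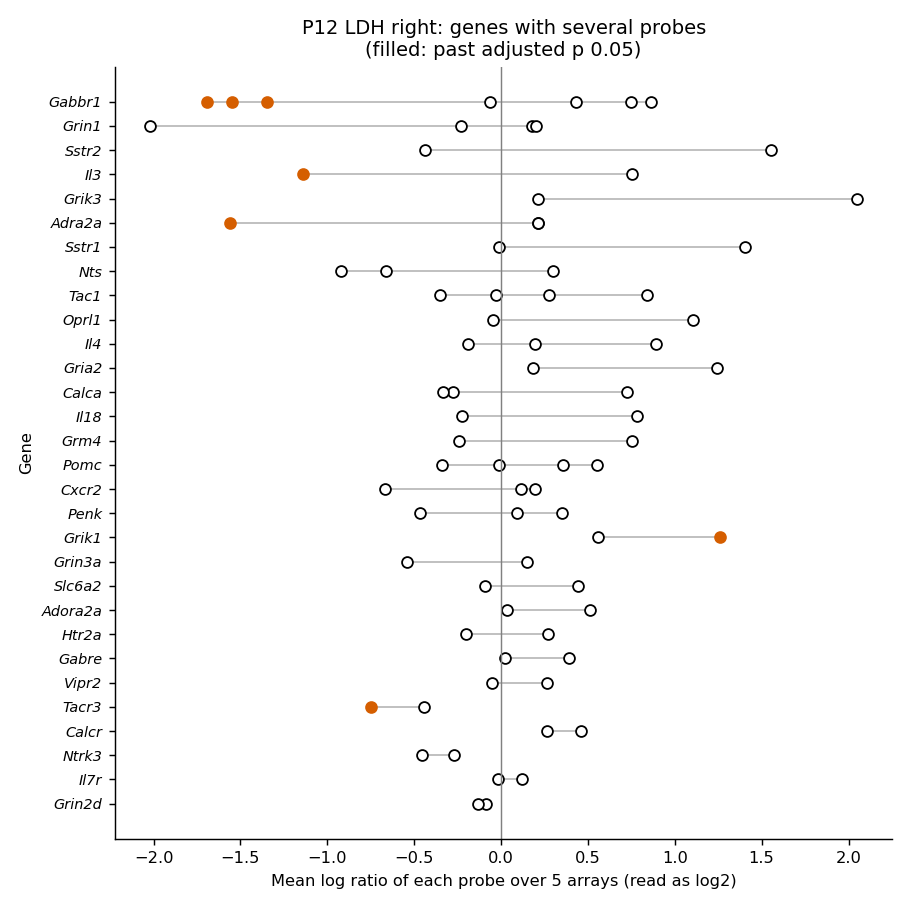
The 30 genes with several probes in the P12 right LDH (rows, widest at the top), with the mean log ratio of each probe over 5 arrays on the x axis (read as log2) and a line joining the probes of a gene. Probes past an adjusted p of 0.05 are filled, and 21 of the 30 lines cross 0, the longest being that of Gabbr1.

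The next comparison asked whether the uninjected side differed from the injected side. Between right and left LDH, 0 of 232 probes passed (0% called, limma), with 9 at an unadjusted p under 0.05 (3.88%). Il2rb read -2.85, -2.75, -3.71, -0.13 and 0.069 on the left arrays 1 to 5, so arrays 1 to 3 were below every right array and arrays 4 and 5 near 0. Its difference, right minus left, was -0.11 ± 0.70 (SE, adjusted p = 0.956). Ntf3 read -2.32, -1.94, -2.41, -0.13 and -1.46 on the left, overlapping the right arrays, with a difference of -0.93 ± 0.44 (SE, adjusted p = 0.744). The left means of the other called probes with a gene name were -1.39 for Cckbr, -1.52 for Cxcr1, -1.31 for Npy1r, -0.85 for Il3, -0.89 for Tacr3, -2.26 for Adra2a and 0.52 for Grik1, and the 3 called Gabbr1 probes had -0.90, -1.06 and -0.59. The smallest p of the comparison belonged to Il2, which read -0.94, -0.60, -0.24, -0.006 and 0 on the right and -0.21, 1.86, 0.45, 1.04 and 0.98 on the left. The difference was -1.18 ± 0.37 (SE, adjusted p = 0.741). Vip, the gene of vasoactive intestinal peptide, had a mean of -0.023 on the right and 0.95 on the left, a difference of -0.97 ± 0.33 (SE). Tacr2, the neurokinin 2 receptor, had 0.30 and -0.71, a difference of 1.01 ± 0.38 (SE), each with an adjusted p of 0.741. A lack of calls does not show that the sides were alike, since an SE of 0.44, as for Ntf3, leaves differences of this size unresolved.

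Against brain, 1 of 232 probes passed (0.431% called), with 33 at an unadjusted p under 0.05 (14.2%). That probe was Ntf3, which read -0.23, 1.98, 0.44, 0.38 and 0 in brain. Every right LDH array was below every brain array, and the difference was -3.09 ± 0.41 (SE, adjusted p = 0.00483). With replicate number taken as a block, Ntf3 did not pass (limma adjusted p = 0.0616). Il2rb read -0.78, -0.98, -1.57, -0.066 and -0.77 in brain, again wholly above the right LDH arrays. Its difference of -1.15 ± 0.26 (SE) did not pass (adjusted p = 0.14), though it did without brain array 3 (adjusted p = 0.0242) and under robust regression (-1.145, adjusted p = 0.00213). Robust regression called more probes than the main fit. The Il2rb difference did not pass with centring, common spread, array weights, the block, a joint fit or any other array left out. Penk's probe 200 came next among the named probes, with -0.47 ± 0.60 on the right and 0.83 ± 0.53 in brain (adjusted p = 0.188). The other called probes had brain means of -0.74 (Cckbr), -1.57 (Cxcr1), -0.29 (Npy1r), -1.17 (Tacr3), -0.28 (Il3), -1.44 (Adra2a) and 0.45 (Grik1), and -0.97, -1.14 and -0.60 for Gabbr1 probes 35, 37 and 76. When the mean of the left LDH and brain means was subtracted from each right LDH array, Ntf3 at -2.01 was the 1 probe that passed (adjusted p = 0.0222), and Il2rb lay at -0.63 (adjusted p = 0.178). These p-values take the subtracted means as exact and reflect the spread of the right LDH arrays only. For Ntf3 the left LDH and brain arrays had SDs of 0.93 and 0.86, so they do not test a difference between tissues.

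**Figure D5:**
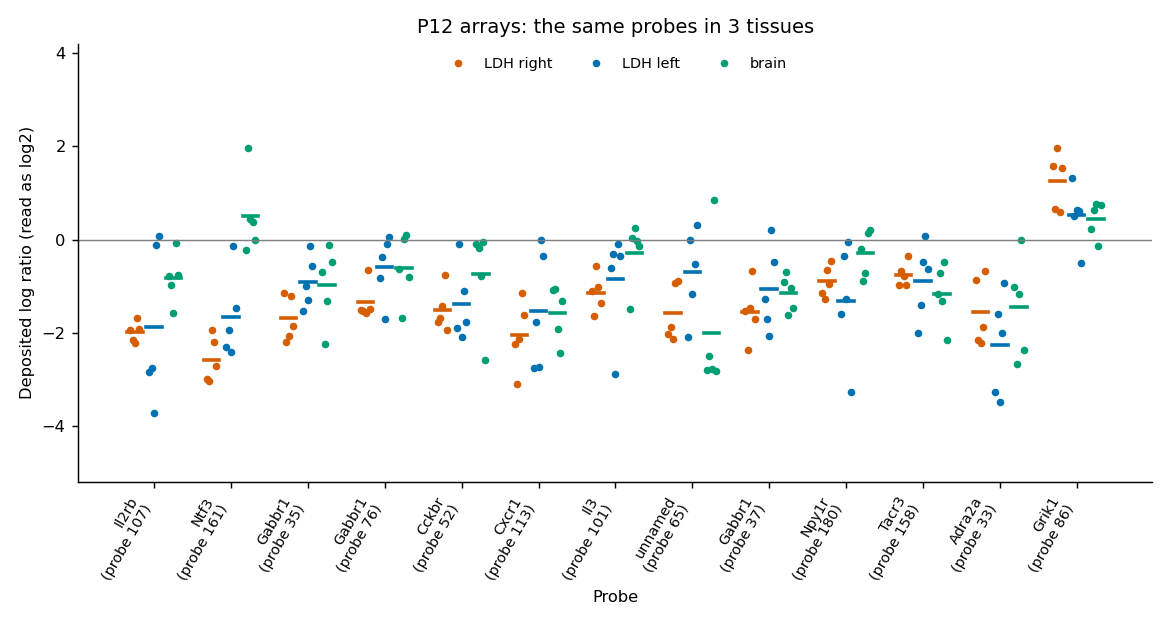
Log ratios (y axis, read as log2) of the 13 called probes on each P12 array of right LDH (orange), left LDH (blue) and brain (green), 5 points per tissue with a bar at the mean. Brain lies wholly above right LDH for Ntf3 and Il2rb, while right LDH and brain overlap for Cxcr1, Adra2a and Tacr3.

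Set beside the right LDH after injection at P3, on another platform and without a test, the same sequence entries gave other values. Among the called genes other than Gabbr1, the means of Ntf3, Il2rb, Il3 and Grik1 kept their sign, though Ntf3 lay near 0 at P3. The genes were chosen for their P12 calls, so means nearer 0 at P3 can follow from that choice alone. Age and platform cannot be told apart there. The 2 P3 arrays most alike (r = 0.806, against at most 0.347 for other pairs) were averaged, which left n = 5. Ntf3 had a mean of -0.065 ± 0.15 at P3 against -2.58 at P12, Cckbr 0.079 ± 0.19 against -1.52, and Cxcr1 0.17 ± 0.31 against -2.05. Il2rb was negative on 4 of 5 P3 samples, at -0.41 ± 0.56 against -1.99. Npy1r was positive on all P3 samples, from 0.24 to 1.16, and negative on all P12 arrays. Adra2a on the entry of probe 33 had 0.028 ± 0.10, Il3 on that of probe 101 had -0.25 ± 0.32, and Grik1 on that of probe 86 had 0.13 ± 0.56. Tacr3 on the shared entry of probes 157 and 158 had 0.0042 ± 0.11. For Gabbr1, the P3 probe on the entry of probe 76 lay at 0.26 ± 0.23 against -1.35 at P12, and the P3 probes on the shared entry of probes 34 to 38 had means from -0.74 to 0.16.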

How the data were processed

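The 33 arrays were custom oligonucleotide arrays hybridised with cDNA from TRIzol RNA, 5 µg per sample, per the labels' protocols. The deposited log ratios are read as log2; the sources used here do not give the authors' scanner, background correction, normalization, log base or direction. The number of arrays limits the precision. Array annotation named 205 of 232 probes (158 symbols); 195 matched the RefSeq gene table by Entrez identifier, with 0 symbols changed.

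For each probe, limma (version 3.58.1, R 4.3.3) fitted the mean of the 5 right LDH arrays with lmFit, and eBayes gave a two-sided p against 0, adjusted by Benjamini-Hochberg over 232 probes (threshold 0.05). Differences from left LDH and brain were fitted on the 2 groups compared. The fits were tested on simulated data. Replicate numbers were not taken as pairs, since the labels do not say that they pair animals. Deviations of same-numbered arrays correlated at r from -0.0928 to 0.143, which does not settle whether they do. Named were all called probes, the 24 symbols of smallest p, the extremes of each gene list, the pain panel and the first 3 named probes of each difference; other names were chosen after their values were seen, as were the adenosine receptor list and averaging the P3 pair. Members and lists were chosen with earlier results of these data known. Alternatives were centring, scaling, weights, robust and unmoderated fits, averaging by symbol, a joint fit, leaving out arrays and subtracting the other tissues.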

Additional observations from a re-analysis of the deposited data

Results flagged for a closer look

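Of 84 named probes of the P12 right LDH, 5 had 1 array far from the other 4 (a gap above 0.71 of the range), and chance flags about 1 in 20 such groups. Array 4 read -0.658 for Gabbr1 probe 76, where the next array read -1.48, and 2.73 for Ngfr, where the next read -0.15. Array 3 read 5.62 for Tac1 probe 79, where the next read 0.469. Array 2 read -1.37 for Nts probe 184, where the next read -0.598. Array 5 read -0.305 for Oprl1 probe 189, where the next read -0.016.

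The difference between right LDH and brain passed for Ntf3, at -3.09 on the log ratio scale. It did not pass with replicate number as a block (limma adjusted p = 0.0616). Gabbr1 probe 224 was positive on 5 of 5 right LDH arrays and negative on 5 of 5 brain arrays, a difference of 0.967. That difference did not pass (limma adjusted p = 0.209).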

How the results depend on the processing

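Against the 13 probes called in the right LDH, robust regression called 32 (11 shared), 1 fit with left LDH and brain 24 (11 shared), the unmoderated test 2, averaging by symbol 7 of 185 items, and subtraction of the other tissues 1. With that subtraction, Adra2a probe 33 turned to 0.29 and Tacr3 probe 158 to 0.27. Leaving out 1 array gave 3 to 12 calls. The causes were not tested. Centring, common spread, array weights, leaving out probes with an exact 0 and leaving out unnamed probes gave 12 to 19. For right minus left, every alternative run gave 0 by limma (7 to 27 at an unadjusted p under 0.05). For right minus brain, robust regression gave 14, leaving out 1 array gave 1 to 2, and leaving out probes with an exact 0 gave 0 (26 unadjusted), because Ntf3 reads 0 on brain array 5 and was itself left out. With replicate number as a block, right minus left gave 0 and right minus brain 0 (limma, 20 and 35 unadjusted), and Ntf3, the 1 probe called without the block, had an adjusted p of 0.0616. A right LDH array correlated best with its own number in 1 of 5 cases for left LDH and in 3 of 5 for brain. Medians of 4 gene lists moved beyond the spread of array medians when 1 array was left out: -0.032 to 0.205 for serotonin genes, -0.154 to 0.0735 for adrenergic genes, -0.074 to 0.148 for opioid genes and 0.042 to 0.38 for the tachykinin and CGRP family. The sign of the first 3 thus rests on single arrays, as does that of GABA receptors (-0.012 to 0.068), interleukin receptors (-0.0655 to 0.022) and other neuropeptides (-0.107 to 0.116).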
